A study of Mus musculus with 18 samples.

Results

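Cytosines of high 5-methylcytosine (m5C) level were followed in the poly(A) RNA of mouse embryonic stem cells that carried a knockout of Tet2 (Tet2 KO) or were wild type. A position was a member if the mean of its 2 replicate m5C levels was at least 0.4 in the Tet2 KO table or in the wild type table. The members were thus selected on the measured levels themselves, and those levels are given as a description, with no test. The rule found 265 members among 7870 listed positions. Both cell types were cultured with serum and LIF on mouse embryonic fibroblast feeder cells. RNA bisulfite sequencing had 2 replicates of Tet2 KO cells and 2 of wild type cells. RNA sequencing had 1 library of each genotype at 0, 3 and 6 h of actinomycin D at 5 µg/ml, a drug that blocks transcription. The labels do not state whether replicates were separate cultures, how many clones the Tet2 KO cells represent, or which part of Tet2 was removed. Another 8 samples, from m5C immunoprecipitation and its input, were left aside.

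m5C is a methyl mark placed on RNA by the NSUN family of methyltransferases and by TRDMT1, and it occurs in ribosomal, transfer and messenger RNA. TET enzymes, of which Tet2 is one, oxidise 5-methylcytosine, and ALYREF and YBX1 are proteins that bind m5C in messenger RNA. Bisulfite turns an unmodified cytosine into uracil, so a cytosine that is still read as cytosine counts as m5C, and the level is the fraction of reads that keep it. A cytosine that stayed unconverted for any other reason is counted in the same way. The part of such cytosines in the levels was not tested.

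Reference sequence was available in windows around annotated transcript starts, and the 10 members found in any such window are shown because they give the local context of high levels. The sequences come from RefSeq, build GRCm38.p6, are written 5′ to 3′ on the strand of the RNA position, and have the methylated cytosine in capitals. The Rprd2, Pwwp2a and Kmt5c sequences come from windows of other genes on the opposite strand (Gm29948, Gm34963 and Gm42369), and these positions lie 1007, 1024 and 208 nt from the start of their own gene. The Rian window ended 3 bases after its position.
Rprd2, chr3:95818727-95818747, minus strand: cggccggcggCggcggaggca
Ranbp9, chr13:43481060-43481080, minus strand: ccgcgctccgCcgggccgcgc
C1galt1 upstream position 1, chr6:7845178-7845198, plus strand: gcgcccggggCgggccagcgc
C1galt1 upstream position 2, chr6:7845172-7845192, plus strand: cccgaggcgcCcggggcgggc
Ptpn4, chr1:119837149-119837169, minus strand: catctcgccgCgaggtgcgag
Pwwp2a, chr11:43682139-43682159, plus strand: gggaagggggCgccggcgagg
Kmt5c, chr7:4740290-4740310, plus strand: ccgcgccgccCggcctcccag
Rian, chr12:109603981-109603994, plus strand: tgagggagccCtgc
Sox13, chr1:133424211-133424231, minus strand: gccggcctggCgggcgcagcg
Slc27a2 upstream position, chr2:126552971-126552991, plus strand: ccgtcccgccCgcacagcgcg

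The windows run from 250 bases before to 50 bases after a transcript start, which can differ from the start of the gene span. All 144 listed positions that fell inside them read C on their own strand. The sequences around the members were rich in G and C. Over 9 members with 10 bases on each side, the median GC content of the 21 bases was 90.5%, with a range of 71.4% to 95.2%. It was 81.0% over 121 listed positions below the level of 0.4, and the median over whole windows, 32815 in all, was 52.7%. The base after the methylated cytosine was G in 7 of the 9 members, Sox13 and Rprd2 among them, against 52.9% of the positions below 0.4 and 15.5% of all cytosines in the windows. The motif CNGGG, known from NSUN2 targets and searched from the methylated base on both strands of the windows, began at 2 of the 9 members (Ranbp9 and the second C1galt1 position), at 12 of 121 positions below 0.4 (9.92%) and at 2.95% of all window cytosines. The motif CTCCA, known from NSUN6 targets, began at 0 of the 9 members, at 0 of the 121 other positions and at 0.672% of all window cytosines. CNGGG can overlap a CG at its first base. The 2 C1galt1 positions are 6 nt apart, so their 21-base sequences overlap and the 9 members are not independent. With 9 members these shares describe the windows, and the part of GC content in the levels was not tested.

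Members were listed in both tables more often than other positions. Of the 265 members, 151 (57.0%) were listed in both tables, 80 (30.2%) in the Tet2 KO table only and 34 (12.8%) in the wild type table only. Of the 7605 positions below 0.4, 888 (11.7%) were in both tables, 3662 (48.2%) in the Tet2 KO table only and 3055 (40.2%) in the wild type table only. The threshold was reached in Tet2 KO cells by 215 members and in wild type cells by 146. Among the 151 shared members, 96 reached it in both genotypes, 39 in Tet2 KO cells only and 16 in wild type cells only. The lowest level listed in any replicate was 0.1, so absence from a table can mean a lower level or no coverage, and neither table gives coverage. Members were chosen far above 0.1, so their larger share in both tables can follow from the rule, and its part was not tested.

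The members' measured levels spread from the threshold to 1.0. A mean of 0.4 to just under 0.5 was the highest that 117 members reached, whereas 86 members had a mean of at least 0.6, 24 of at least 0.8 and 14 of at least 0.9 in one table or the other. Where listed, the median level of members was 0.498 in Tet2 KO cells and 0.48 in wild type cells, against 0.145 in Tet2 KO and 0.141 in wild type cells for the positions below 0.4. The scatter of mean levels shows the shared members on both sides of the diagonal.

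**Figure D1:**
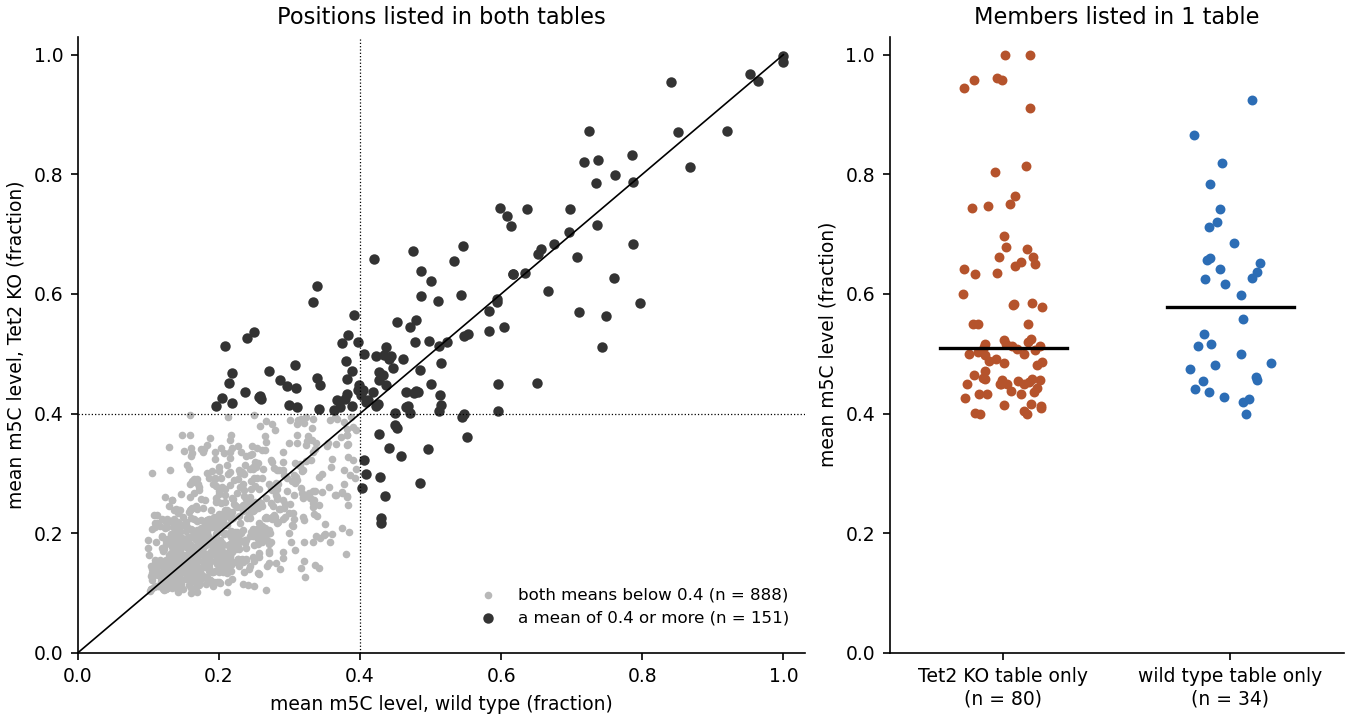
Mean m5C level (fraction, mean of 2 replicates) of every position listed in both tables, with Tet2 KO on the vertical and wild type on the horizontal axis (left), and of members listed in 1 table, with lines at the medians (right). Black points are the 151 shared members, grey points the 888 shared positions below 0.4, dotted lines mark 0.4, and the medians at right are 0.509 for the Tet2 KO table and 0.578 for the wild type table.

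Of the positions listed in both genotypes, those of AY036118, Tle3, Nisch and Samd1 had the highest means, with 0.929 or more in all 4 samples. A position at chr17:39848789 on the plus strand, within the span of the long noncoding RNA gene AY036118 but on the opposite strand, had levels of 1.0 and 0.997 in Tet2 KO cells and of 1.0 and 1.0 in wild type cells. Tle3 (chr9:61417048, plus strand), a Groucho-family transcriptional corepressor, had 1.0 and 0.976 in Tet2 KO cells, against 1.0 and 1.0 in wild type cells. Nisch (chr14:31186632, minus strand), which encodes an integrin-binding scaffold protein, had 1.0 and 0.935 in Tet2 KO and 0.95 and 0.956 in wild type cells. The genotypes overlapped in Nisch and shared the value of 1.0 at the AY036118 and Tle3 positions. Samd1 (chr8:83998328, plus strand), a chromatin protein that binds CpG islands, had 0.962 and 0.949 in Tet2 KO cells and 1.0 and 0.929 in wild type cells, which overlapped too. Hsf1 (chr15:76477621, plus strand), the heat shock transcription factor, had 0.913 and 0.833 in Tet2 KO cells and 0.939 and 0.9 in wild type cells. Atp13a3 (chr16:30388751, minus strand), a P-type ATPase, had 0.955 and 0.788 in Tet2 KO and 0.8 and 0.9 in wild type cells. The genotypes overlapped in Hsf1 and Atp13a3 too. Lars2 (chr9:123462017, plus strand), the mitochondrial leucyl-tRNA synthetase gene, had 0.958 and 0.95 in Tet2 KO cells and 0.843 and 0.838 in wild type cells. Its groups did not overlap, and the position lay 658 nt from the annotated gene end. All 4 replicates were at 0.8 or more in 6 members, namely those of AY036118, Tle3, Nisch, Samd1, Hsf1 and Lars2. Tle3 was also near its gene end, at 1449 nt, whereas Nisch lay 20194 nt from its start and 15704 nt from its end.

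Other members with high levels were listed in 1 genotype. In Tet2 KO cells, Zc3h11a (chr1:133661178, minus strand), a zinc finger protein of messenger RNA export, and Cxxc5 (chr18:35830072, plus strand), a CpG-binding zinc finger protein, had 1.0 in both replicates. Ryk (chr9:102835003, plus strand), a Wnt co-receptor, had 1.0 and 0.923 in Tet2 KO cells. Rprd2 (chr3:95818737, minus strand), a relative of RNA polymerase II tail-binding factors, had 0.917 and 1.0 in Tet2 KO cells. None of these 4 positions was in the wild type table. In wild type cells, Elk1 (chrX:20950482, minus strand), an ETS-family transcription factor, had 0.917 and 0.933. Tlk2 (chr11:105181922, plus strand), a kinase of chromatin assembly, had 0.893 and 0.84 in wild type cells, and Usp7 (chr16:8738619, minus strand), a deubiquitinase, had 0.8 and 0.839. Irf2bp2 (chr8:126593521, minus strand), a transcriptional corepressor, had 0.818 and 0.75 in wild type cells, and Habp4 (chr13:64162020, plus strand), an RNA-binding protein gene, had 0.818 and 0.667. None of these 5 was in the Tet2 KO table. The 80 members of the Tet2 KO table only had a median level of 0.509 with a median gap between replicates of 0.1, and the 34 of the wild type table only had a median level of 0.578 with a gap of 0.142. Some of their genes were seen in the other genotype at another position. Of the 72 genes with members in the Tet2 KO table only, 33 had a position in the wild type table. Of the 32 genes with members in the wild type table only, 15 had one in the Tet2 KO table. The matching shares for genes of positions below 0.4 were not computed, so nothing particular to members is read from these counts.

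Among the 151 shared members, the level was higher in Tet2 KO cells at 91, lower at 59 and equal at 1. The median difference, Tet2 KO minus wild type, was 0.0295 with an SD over positions of 0.117. It was 0.012 without Tet2 KO replicate 1 and 0.016 at a threshold of 0.5. At 87 of the 151 the means lay within 0.1 of each other. Over the 888 shared positions below 0.4, the difference was positive at 445, negative at 440 and 0 at 3, with a median of 0.0005 and an SD of 0.0643. The 2 replicates of Tet2 KO cells both lay above both of wild type at 40 members (26.5%), against 19.4% of all 1039 shared positions, and both lay below at 24 members (15.9%), against 15.5%. At the other 87 members the groups overlapped. Since a mean of 0.4 in either genotype decided membership, these counts carry no test. The direction depended on the table used for the choice. For the 135 shared positions that reached 0.4 in the Tet2 KO table the median difference was 0.0415, and for the 112 that reached it in the wild type table it was -0.0027.

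The widest differences with a higher level in Tet2 KO cells were between 0.217 and 0.305. Bclaf1 (chr10:20322018), a nuclear RNA-processing factor, had 0.727 and 0.3 in Tet2 KO cells, against 0.25 and 0.167 in wild type cells. Itga9 (chr9:118606842), the integrin alpha 9 subunit, had 0.59 and 0.482 in Tet2 KO cells, against 0.273 and 0.227 in wild type cells. Cul5 (chr9:53667154), a ubiquitin ligase scaffold, had 0.432 and 0.47 in Tet2 KO and 0.216 and 0.213 in wild type cells. The groups were apart in all 3, but the lower Bclaf1 replicate of Tet2 KO cells was closer to wild type than to the other Tet2 KO replicate. Bora, an activator of Aurora kinase A, had 0.429 and 0.625 in Tet2 KO cells and 0.2 and 0.28 in wild type cells. Ino80, a chromatin remodelling ATPase, had 0.524 and 0.65 in Tet2 KO cells and 0.333 in both wild type replicates. Rnf168, a ubiquitin ligase of the DNA damage response, had 0.545 and 0.391 in Tet2 KO cells and 0.222 and 0.214 in wild type cells. Plxna3, a semaphorin receptor, Klhl26, a Kelch-domain protein, Fcho1, an endocytosis factor, and Rbm28, a nucleolar RNA-binding protein, complete the 10 widest, and in none of the 10 did the groups overlap.

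The widest differences with a lower level in Tet2 KO cells were between -0.173 and -0.233, and the groups overlapped in Rlf and Mnt but not in the other 8. Rlf (chr4:121215001), a zinc finger transcription factor, had 0.632 and 0.39 in Tet2 KO cells, against 0.857 and 0.63 in wild type cells. Cbx7 (chr15:79915843), a Polycomb protein, had 0.217 and 0.235 in Tet2 KO cells, against 0.379 and 0.48 in wild type cells. Nfatc3 (chr8:106130252), a calcium-regulated transcription factor, had 0.273 and 0.296 in Tet2 KO cells, against 0.438 and 0.533 in wild type cells. Cbx7 and Nfatc3 were apart in all replicates, and both positions were near the gene end, at 39 nt and 285 nt. Slc30a5, a zinc transporter, had 0.429 and 0.381 in Tet2 KO cells and 0.571 and 0.619 in wild type cells. Hsp90aa1, a heat shock chaperone, had 0.256 and 0.268 in Tet2 KO cells and 0.333 and 0.538 in wild type cells. Mnt, a MAX-binding repressor, had 0.333 and 0.389 in Tet2 KO cells and 0.786 and 0.318 in wild type cells, an overlap set by the lower wild type replicate. Zdhhc24, a palmitoyltransferase, and Fbxl19, a CpG-binding F-box protein, had differences of -0.2135 and -0.2005, and the pseudogenes Rps12-ps24 and Gm8885 had -0.212 and -0.186. A pseudogene shares sequence with its parent gene and the treatment of multiply mapped reads is not given in the sources used here, so these 2 positions are uncertain.

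**Figure D2:**
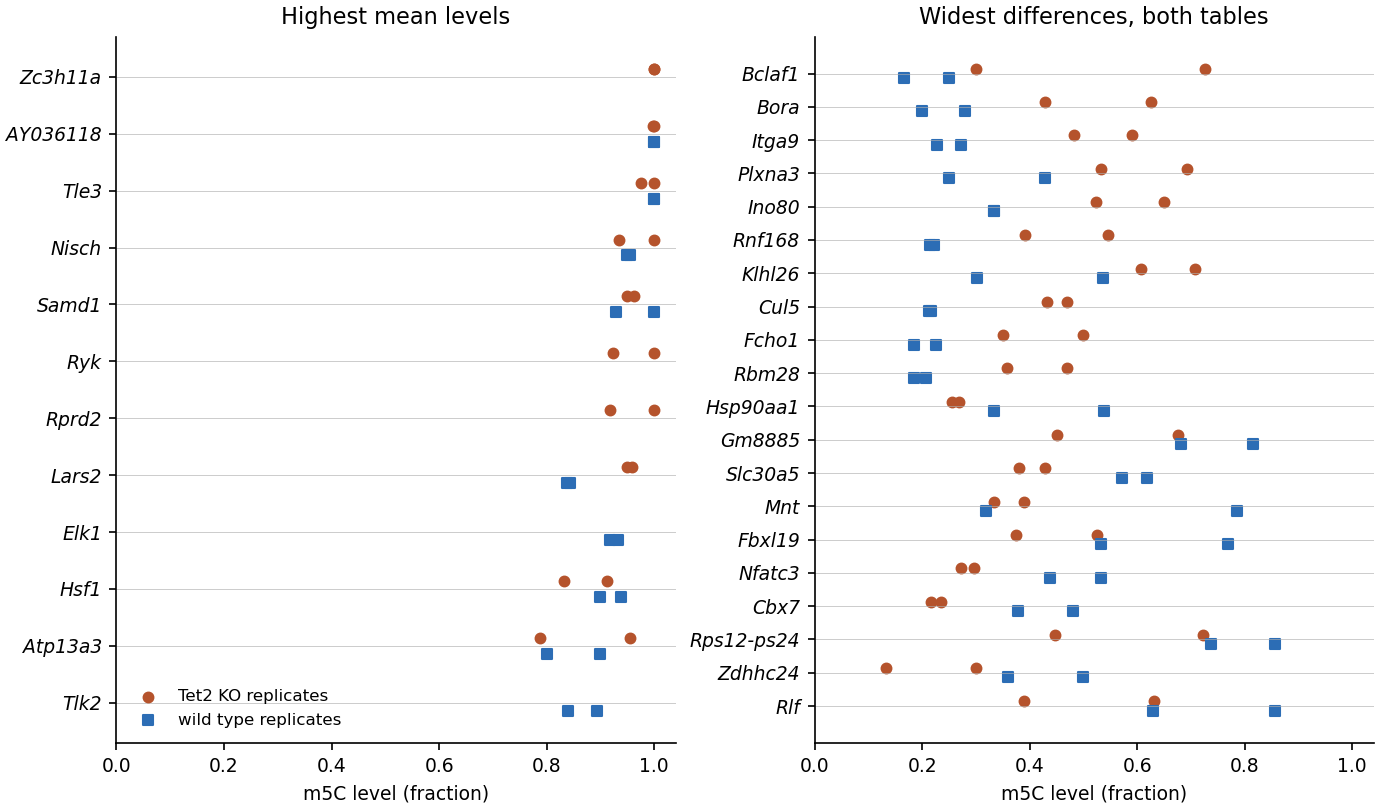
m5C level (fraction) in each replicate. At left are positions of high mean level that the text names, without those of Cxxc5, Usp7, Irf2bp2 and Habp4. At right are the 10 widest differences in each direction among shared members. Orange circles are the 2 Tet2 KO replicates and blue squares the 2 wild type replicates; a row with 1 colour was listed in 1 table, and at right the upper 10 rows are higher in Tet2 KO cells and the lower 10 rows lower.

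The spread between replicates was wide in the middle of the range and narrow at its top. The median gap between the 2 replicates of members was 0.086 in Tet2 KO cells and 0.09 in wild type cells, against 0.034 in each genotype for positions below 0.4. At means of 0.8 or more it was 0.024 in Tet2 KO and 0.031 in wild type cells, and at means of 0.4 to 0.6 it was 0.107 in Tet2 KO and 0.104 in wild type cells. A fraction cannot exceed 1, which limits the gap at high means, and the part of the scale in these gaps was not tested. The widest gaps were 0.5 in Tet2 KO cells and 0.468 in wild type cells. Both replicates reached 0.4 in 153 members in Tet2 KO cells and in 104 in wild type cells, and all 4 replicates did in 61 members.

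Median levels were lower in a replicate that played no part in a choice than in the replicate that made it. The medians were 0.5 in Tet2 KO replicate 1 for positions chosen there and 0.444 for the same positions in replicate 2, and in wild type 0.492 in replicate 1 and 0.429 in replicate 2. Of the 259 positions at 0.4 or more in Tet2 KO replicate 1, 59.1% were also at 0.4 or more in replicate 2, and of the 236 in replicate 2, 64.8% were so in replicate 1. For wild type the shares were 51.7% of 201 positions chosen on replicate 1 and 64.2% of 162 chosen on replicate 2. Positions at 0.8 or more in 1 replicate were read against the lower bar of 0.4 in the other. All 27 such positions of Tet2 KO replicate 1 reached 0.4 in replicate 2, with a median of 0.833. Of 23 chosen on Tet2 KO replicate 2, 22 reached 0.4 in replicate 1. All 17 of wild type replicate 1 reached it in replicate 2, with a median of 0.84. These counts do not compare with the shares above, whose choice and bar were both 0.4. Repeats at 0.8 within each pair of replicates were not counted. The difference between genotypes could also be read in the replicate that made no choice. For the 199 shared positions chosen on replicate 1 of either genotype, the median difference in replicate 2 was 0.024, with 114 higher and 85 lower in Tet2 KO cells. For the 175 chosen on replicate 2 the median difference in replicate 1 was 0.006, with 89 higher, 81 lower and 5 equal.

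Members had close neighbours more often than other positions. Another listed position lay within 10 nt on the same strand at 33 of the 265 members (12.5%), against 335 of the 7605 positions below 0.4 (4.41%). Within 50 nt the counts were 66 members (24.9%) and 916 other positions (12.04%). No member had a neighbour within 5 nt, and 59 other positions (0.776%) had one, a share too low to read a difference from 265 members. The smallest spacing of a member was 6 nt. At 19 members the neighbour within 10 nt was itself a member. The members fell in 238 genes, of which 222 held 1 member, 12 held 2 and 4 held 3. Neighbours can be read from the same RNA fragments and are not independent of each other.

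The 4 genes with 3 members were Trim71, Pmepa1, Mybl2 and Irf2bp2. Trim71, a stem cell RNA-binding protein and let-7 target, had 0.941 and 0.947 in Tet2 KO cells at chr9:114562707 on the minus strand, a position not in the wild type table. At chr9:114562701, which is 6 nt downstream, Trim71 had 0.435 and 0.387 in Tet2 KO cells and 0.429 and 0.5 in wild type cells. So a neighbour at a similar level in both genotypes lay beside a position listed in Tet2 KO cells alone. The last Trim71 member, chr9:114563635, had 0.467 and 0.55 in Tet2 KO cells and was not in the wild type table. Pmepa1, an inhibitor of TGF-beta signalling, had its 3 members within 15 nt, all listed in both tables. They had 0.769 and 0.429, then 0.8 and 0.542, then 0.833 and 0.593 in Tet2 KO cells in the order of the transcript, and 0.385 and 0.7, then 0.45 and 0.5, then 0.542 and 0.686 in wild type cells. At all 3 the Tet2 KO replicate 1 was the highest of the 4 samples, and at the outer 2 the groups overlapped. Mybl2, a cell cycle transcription factor, had 0.689 and 0.679 in Tet2 KO cells and 0.841 and 0.733 in wild type cells at chr2:163054817. Its 2 other members, 6 nt apart, had 0.5 and 0.545 and 0.385 and 0.583 in Tet2 KO cells and were not in the wild type table. Irf2bp2 had, 15 nt apart, the wild type member named above and a Tet2 KO member at 0.273 and 0.545, neither of which was in the other table. Its remaining member, further downstream at chr8:126591466, was shared, with 0.64 and 0.4 in Tet2 KO cells and 0.588 and 0.459 in wild type cells.

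Other genes held a close pair of members. In Sbf1, a myotubularin-family protein, the position at chr15:89288566 had 0.833 and 0.816 in Tet2 KO cells and 0.733 and 0.742 in wild type cells, and the position 6 nt downstream had 0.439 and 0.627 in Tet2 KO and 0.606 and 0.5 in wild type cells. Every replicate of the first Sbf1 position lay above every replicate of the second. Dnmt3l, an inactive partner of the DNA methyltransferases, had 2 members 6 nt apart, of which the first had 0.5 and 0.4 in Tet2 KO cells and no wild type listing. The second had 0.4 and 0.455 in Tet2 KO cells and 0.286 and 0.227 in wild type cells. Rian, an imprinted long noncoding RNA, had 2 members 7 nt apart in wild type cells, at 0.75 and 0.524 and at 0.5 and 0.41, and neither was in the Tet2 KO table. Over all members of the Tet2 KO table only, 3 of 80 had a position of the wild type table within 10 nt and 11 had one within 50 nt. For the 3662 positions below 0.4 in that table only, the counts were 62 and 206. Over the 34 members of the wild type table only, 1 had a Tet2 KO position within 10 nt and 7 had one within 50 nt. For the 3055 positions below 0.4 in the wild type table only, the counts were 63 and 191.

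**Figure D3:**
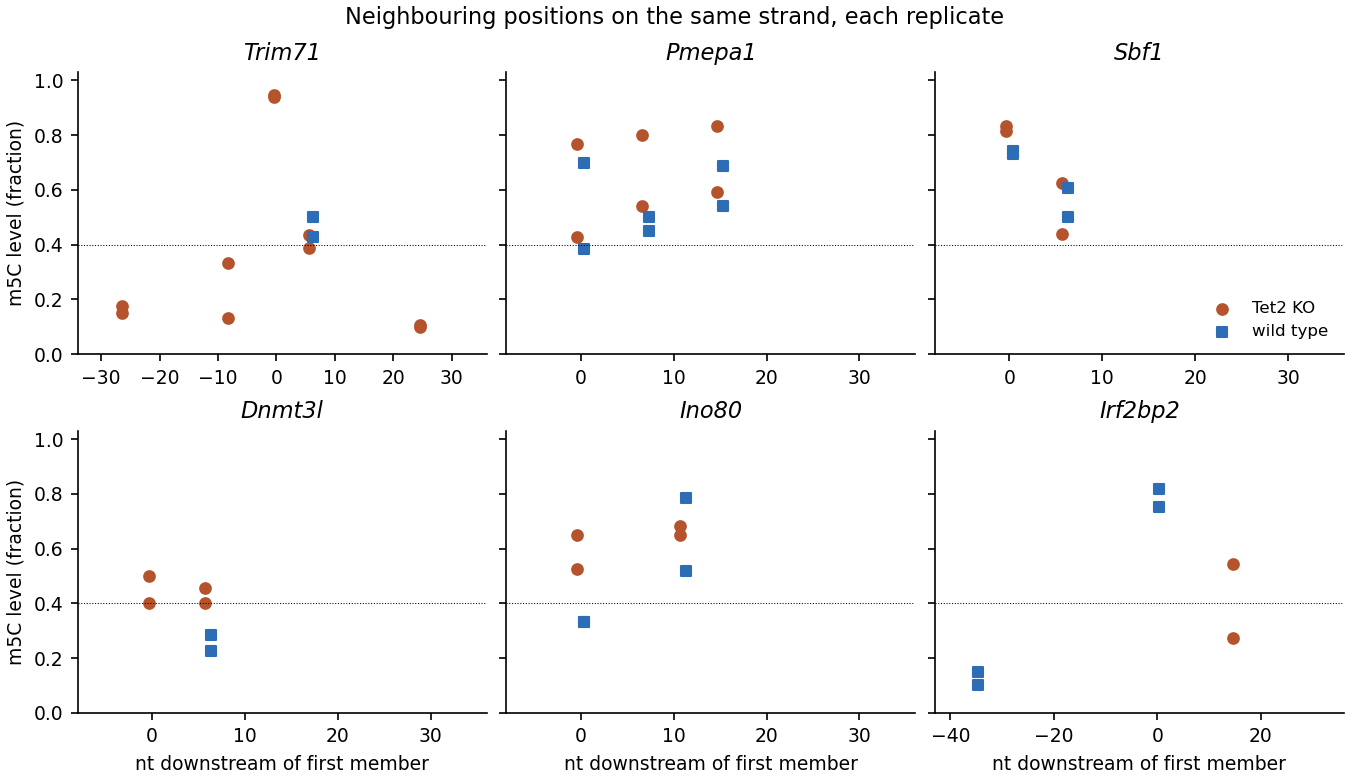
m5C level (fraction) of each listed position near the closest pair of members in 6 genes, by distance in nt along the transcript strand from the first member of that pair. Orange circles are Tet2 KO replicates, blue squares wild type replicates, and the dotted line marks 0.4; Trim71 has a pair of Tet2 KO points near 0.94 with no wild type point at the same place, and Pmepa1 has 3 positions listed in both genotypes.

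Members lay near gene starts more often than other positions. Of the 187 members in protein-coding genes of known strand and on that strand, 51 (27.3%, exact 95% interval 21.03% to 34.3%) were within 500 nt of the annotated gene start. Of 5890 such positions below 0.4, 825 (14.01%, 13.1% to 14.9%) were. In genes of at least 10000 nt the shares were 29.1% of 148 members and 12.6% of 4735 other positions. The intervals cover the counting of positions only, and positions in one gene are not independent. The share differed along the range of levels: it was 11.95% at levels of 0.1 to 0.15, 23.1% at 0.3 to 0.4, 18.5% of 81 members at 0.4 to 0.5, 21.3% of 47 members at 0.5 to 0.6, and 44.1% of 59 members (31.2% to 57.6%) at 0.6 or more. Of the 58 such members in the Tet2 KO table only, 32.8% were within 500 nt of the start, as were 32.0% of the 25 in the wild type table only and 23.1% of the 104 in both tables. For positions below 0.4 the shares were 14.6% in the Tet2 KO table only, 12.4% in the wild type table only and 17.1% in both tables. Gene ends showed another order. Within 500 nt of the gene end lay 15 of the 81 members at 0.4 to 0.5 and 9 of the 47 at 0.5 to 0.6, but 1 of the 59 at 0.6 or more, against 9.18% of positions at 0.1 to 0.15. Exon, intron and UTR positions were not analysed here.

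**Figure D4:**
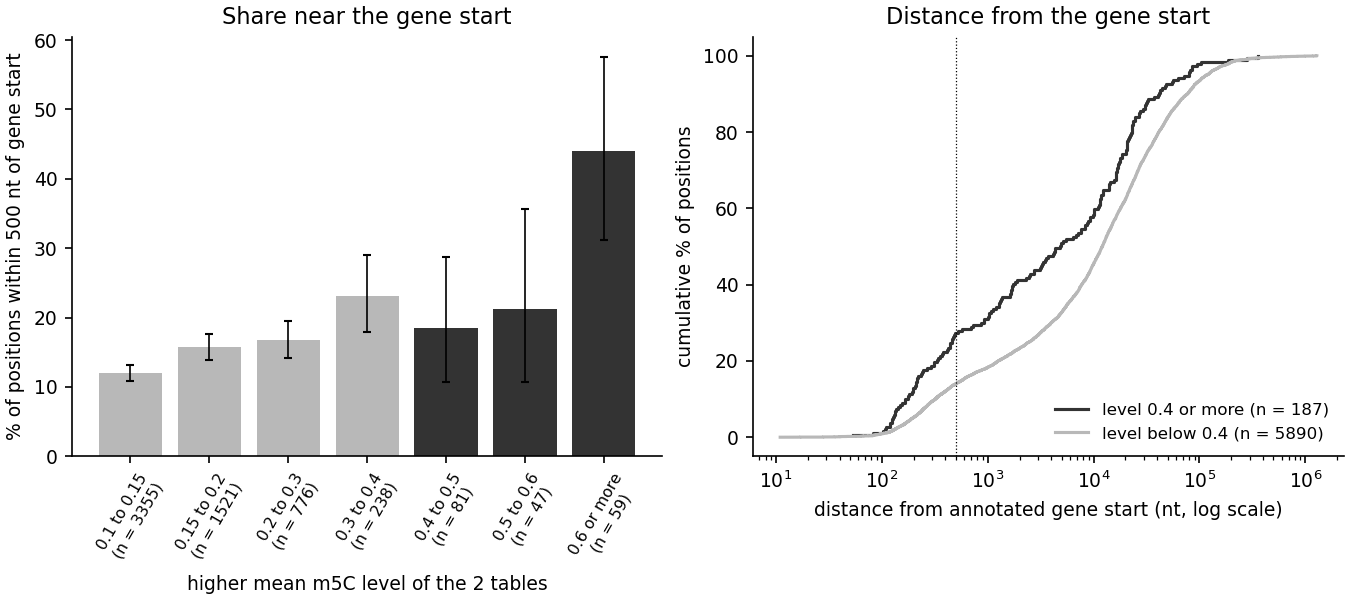
Share of positions within 500 nt of the annotated gene start by the higher mean m5C level of the 2 tables, with exact 95% binomial intervals (left), and cumulative share by distance from the gene start on a log axis (right), for protein-coding genes of known strand. Black marks members and grey positions below 0.4; the share is 44.1% at levels of 0.6 or more and 11.95% at levels of 0.1 to 0.15.

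The examples near gene starts are members named by level, and those near gene ends are members of the gene lists. Ryk lay 83 nt, Elk1 126 nt, Habp4 154 nt, Zc3h11a 221 nt and Irf2bp2 465 nt from the annotated gene start. Pou5f1, which encodes the pluripotency factor Oct4, had its member 380 nt from the gene end, at chr17:35510397, with 0.497 and 0.485 in Tet2 KO cells and 0.439 and 0.483 in wild type cells. The groups did not overlap but almost touched. Lin28a, an RNA-binding protein that blocks let-7 maturation, had its member 174 nt from the gene end, with 0.538 and 0.5 in Tet2 KO cells and no wild type listing. The ribosomal protein genes Rpl35 and Rps10 had members within 8 nt of the gene end. Rpl35 had 0.571 and 0.25 in Tet2 KO cells and 0.438 and 0.182 in wild type cells, and Rps10 had 0.304 and 0.559 in Tet2 KO cells and 0.32 and 0.483 in wild type cells. In both the replicates differed more than the genotypes.

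Gene groups are given as shares of the members in genes, beside the share of the positions below 0.4 in genes. Ribosomal protein genes held 3 members (1.16%, against 0.916%), Zfp zinc finger genes 4 (1.55%, against 1.42%) and translation factors 2 (0.775%, against 0.677%). Solute carriers held 2 (0.775%, against 1.59%), tubulin or actin-related genes 2 (0.775%, against 0.371%), chaperones 1 (0.388%, against 0.717%) and the pluripotency list 2, Pou5f1 and Lin28a (0.775%, against 0.265%). With 1 to 4 members a group, nothing is read from these shares. Zfp692 was the highest of them, with 0.864 and 0.619 in Tet2 KO cells and 0.462 and 0.812 in wild type cells. Eef1a1, the translation elongation factor, had 0.418 and 0.476 in Tet2 KO and 0.317 and 0.481 in wild type cells, and Eef1d, its exchange factor subunit, had 0.444 and 0.4 in Tet2 KO and 0.3 and 0.522 in wild type cells. Groups overlapped in all 3. The m5C writers, readers and TET genes held 0 members among their 18 listed positions, where 3.37% of all listed positions were members. Tet2 itself had 5 listed positions with a highest mean level of 0.143.

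By annotation, 241 members lay in protein-coding genes (90.9%, against 95.6% of positions below 0.4), 11 in pseudogenes, 5 in long noncoding RNA genes, 1 in a small nucleolar RNA gene and 7 in no gene of the table. Where the strand of the gene was known, 98.5% of 194 members were on it, against 99.9% of 5964 other positions. The 3 on the other strand were in AY036118, Zc3h7a and Gm29667. A gene on the strand of the position was taken first as its host, which favours high shares for members and other positions alike. The AY036118 position closed a stretch of chromosome 17 from 39843517 to 39848789 that held 12 listed positions on the plus strand, one of them in Rn18s-rs5, an annotation related to 18S ribosomal RNA. The 2 other members of that stretch, both outside annotated genes, had 0.558 and 0.584 in Tet2 KO and 0.603 and 0.564 in wild type cells, and 0.44 and 0.384 in Tet2 KO and 0.521 and 0.414 in wild type cells. Ribosomal sequence occurs in many copies, so the source of reads there is uncertain.

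Positions on both sides of the threshold had close means. Just inside were Mettl6, with 0.6 and 0.2 in wild type cells, Gm22711 and Usp31, each with 0.4 in both Tet2 KO replicates, Phldb1, with 0.273 and 0.529 in Tet2 KO cells, and Ndufa3, with 0.238 and 0.312 in Tet2 KO cells and 0.417 and 0.389 in wild type cells. Just outside was Cnbp, with 0.438 and 0.36 in wild type cells. Rps24 had 0.389 and 0.406 in Tet2 KO cells and 0.176 and 0.143 in wild type cells, Mark2 had 0.438 and 0.357 in Tet2 KO and 0.25 in both wild type replicates, and Nme4 had 0.411 and 0.379 in Tet2 KO and 0.464 and 0.31 in wild type cells.

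Tet2 RNA, measured in the RNA libraries, did not set the genotypes apart: at 0, 3 and 6 h of actinomycin D it was at 23.0, 11.2 and 10.1 RPKM (reads per kilobase, scaled to the mapped reads of the library) in the libraries labelled Tet2 KO and at 23.7, 17.9 and 12.5 RPKM in wild type (log2 difference -0.32 ± 0.2 SE, limma adjusted p = 0.593). A knockout can leave the transcript in place, so this level does not check the labels, and the bisulfite tables hold no RNA levels to check theirs. Of the 10 stem cell markers 8 were in the RNA table, with a summed level of 997 to 1172 RPKM in the libraries labelled Tet2 KO and 866 to 1197 RPKM in wild type. Of these 8, Zfp42, a stem cell zinc finger gene, passed for genotype, at 30.6, 10.8 and 6.79 RPKM in the libraries labelled Tet2 KO and 120, 52.5 and 24.7 RPKM in wild type (log2 difference -1.95, limma adjusted p = 0.0434). That call was lost when any 1 of the 6 libraries was left out (limma adjusted p = 0.0611 to 0.384) and with no time block, no filter on low values, no mean trend or quantile normalization. Of 10 fibroblast markers, which feeder cells carry, 9 were in the table, with a summed level of 92.5 to 124 RPKM in the libraries labelled Tet2 KO and 102 to 160 RPKM in wild type, and none of these 9 passed for genotype. The feeder marker Col1a2, a collagen gene, was at 48.8 to 59.1 RPKM in the libraries labelled Tet2 KO and 49.1 to 75.9 RPKM in wild type, Lum was not in the table, and 8 of the 9 estimates were below 0. One fibroblast marker, Twist2, was a host, with a member at a mean of 0.465 in Tet2 KO cells. The part of feeder RNA in the results was not tested. In bulk RNA, fewer cells of a type and less RNA per cell cannot be told apart.

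The RNA of the host genes was measured in other libraries and had no part in the choice. Of the members, 225 had their gene among the 14864 loci of the RNA table, in 209 loci, of which 206 had a mean of at least 1 RPKM and were tested. At 0 h the median level of the host loci was 11.2 RPKM in the library labelled Tet2 KO and 11.0 RPKM in wild type, close to the 9.94 RPKM in Tet2 KO and 10.2 RPKM in wild type of the 3879 loci that held only positions below 0.4. Across the 225 members, Spearman's rho between the higher mean level and the mean RPKM was -0.07, a description over positions that share libraries. The gap between replicates was wider for hosts of low RNA level: its median was 0.122 among the 75 members of lowest RNA level, with a median of 3.12 RPKM, and 0.0905 among the 75 of highest, with a median of 48.8 RPKM.

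No host gene passed the test between genotypes. With limma on log2(RPKM + 1), time as a block and Benjamini-Hochberg adjustment over 11855 loci, 0 of 206 host loci reached an adjusted p of 0.05, where 0.0759% of all loci did, and the smallest adjusted p of a host was 0.0786. At an unadjusted p under 0.05 stood 25 of the 206 host loci (12.1%) and 1285 of all loci (10.8%). The median log2 difference, libraries labelled Tet2 KO minus wild type, was 0.01 over host loci and 0.04 over all loci. The smallest p belonged to Gm8420, a pseudogene whose member was listed in Tet2 KO cells only at 0.688 and 0.707. Gm8420 had 5.84, 10.5 and 6.28 RPKM at 0, 3 and 6 h in the libraries labelled Tet2 KO and 0.615, 0.0543 and 0.319 RPKM in wild type (log2 difference 2.67 ± 0.31 SE). It passed when the wild type 0 h library was left out (limma adjusted p = 0.0464) and when time was not a block (limma adjusted p = 0.0443), and its adjusted p was 0.0576 to 0.547 under the other alternatives. The next was the locus that holds Rian with several small RNA genes, at 36.9, 30.7 and 39.0 RPKM in the libraries labelled Tet2 KO and 108, 151 and 101 RPKM in wild type (log2 difference -1.71 ± 0.22 SE, limma adjusted p = 0.0836). Its 2 members were listed in wild type only. In both genes the RNA was lower, without overlap, in the genotype whose table lacked the position, and the part of RNA level in the listing was not tested. Tex19.1, a germ cell and stem cell gene, had 15.6, 11.4 and 9.66 RPKM in the libraries labelled Tet2 KO and 4.92, 4.87 and 2.8 RPKM in wild type (limma adjusted p = 0.145). Lin28a had 58.1, 67.3 and 65.5 RPKM in the libraries labelled Tet2 KO and 35.9, 43.9 and 39.3 RPKM in wild type (limma adjusted p = 0.309), and Acsf2, an acyl-CoA synthetase, 5.37, 4.03 and 12.9 RPKM in Tet2 KO and 1.39, 2.15 and 1.77 RPKM in wild type (limma adjusted p = 0.3095).

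The host loci were also split by the listing of their members. The median log2 difference, libraries labelled Tet2 KO minus wild type, was 0.08 over 56 tested host loci of members in the Tet2 KO table only, with 32 above 0. It was -0.12 over 24 host loci of members in the wild type table only, with 9 above 0, and -0.02 over 120 host loci of shared members, with 58 above 0. These medians carry no test. Across 130 shared members with a tested host, Spearman's rho between the difference in level and the difference in RNA was 0.002.

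Under actinomycin D, the share of host RNAs that fell relative to the library was near that of all RNAs. In a limma fit of log2(RPKM + 1) on time with genotype as a factor, 17 of 206 host loci (8.25%) had a slope that passed at an adjusted p of 0.05, all downward, against 8.03% of all loci tested. The median slope was -0.05 per h over host loci and -0.05 per h over all loci. The steepest was Smad7, an inhibitor of TGF-beta signalling, at 18.6, 2.76 and 1.25 RPKM at 0, 3 and 6 h in the libraries labelled Tet2 KO and 11.99, 1.66 and 1.13 RPKM in wild type (-0.48 ± 0.08 SE per h, limma adjusted p = 0.0127). Spry2, a feedback inhibitor of receptor tyrosine kinase signalling, had 25.8, 3.89 and 3.21 RPKM in the libraries labelled Tet2 KO and 33.0, 5.2 and 4.59 RPKM in wild type (-0.44 ± 0.09 SE per h, limma adjusted p = 0.0231). Both had lost most of their RNA by 3 h. Rlf had 14.1, 5.56 and 1.84 RPKM in the libraries labelled Tet2 KO and 12.6, 4.86 and 2.70 RPKM in wild type (-0.36 ± 0.05 SE per h, limma adjusted p = 0.0084). The others of the 12 steepest were Tmem115, a Golgi protein, Slc30a5, Rell1, Tlk2, Fam117b, Tnrc6c, a microRNA silencing factor, Rnf168, Nectin3, a cell adhesion protein, and Rfx7, a transcription factor, with slopes from -0.28 to -0.2 per h. The members in Smad7, Spry2, Fam117b, Tnrc6c, Nectin3 and Rfx7 were listed in Tet2 KO cells only, those in Tlk2 and Rell1 in wild type cells only, and those in Rlf, Slc30a5, Tmem115 and Rnf168 in both. The median slope was -0.06 per h over hosts of members in the Tet2 KO table only, -0.07 per h over hosts of the wild type table only and -0.04 per h over hosts of shared members. With quantile normalization, which moved the median slope of all loci to 0.02 per h, 0 of the 206 host loci passed and 0.996% of all loci did. Leaving out 1 library changed the counts of host loci and of all loci together. Without the Tet2 KO 0 h library 0 host loci and 1.5% of all loci passed, without the Tet2 KO 3 h library 32 (15.5%) and 12.5%, and without the Tet2 KO 6 h library 11 (5.34%) and 6.24%. Without the wild type 0 h library 1 host locus (0.485%) and 0.951% of all loci passed, without the wild type 3 h library 3 (1.46%) and 2.0%, and without the wild type 6 h library 0 and 0%.

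**Figure D5:**
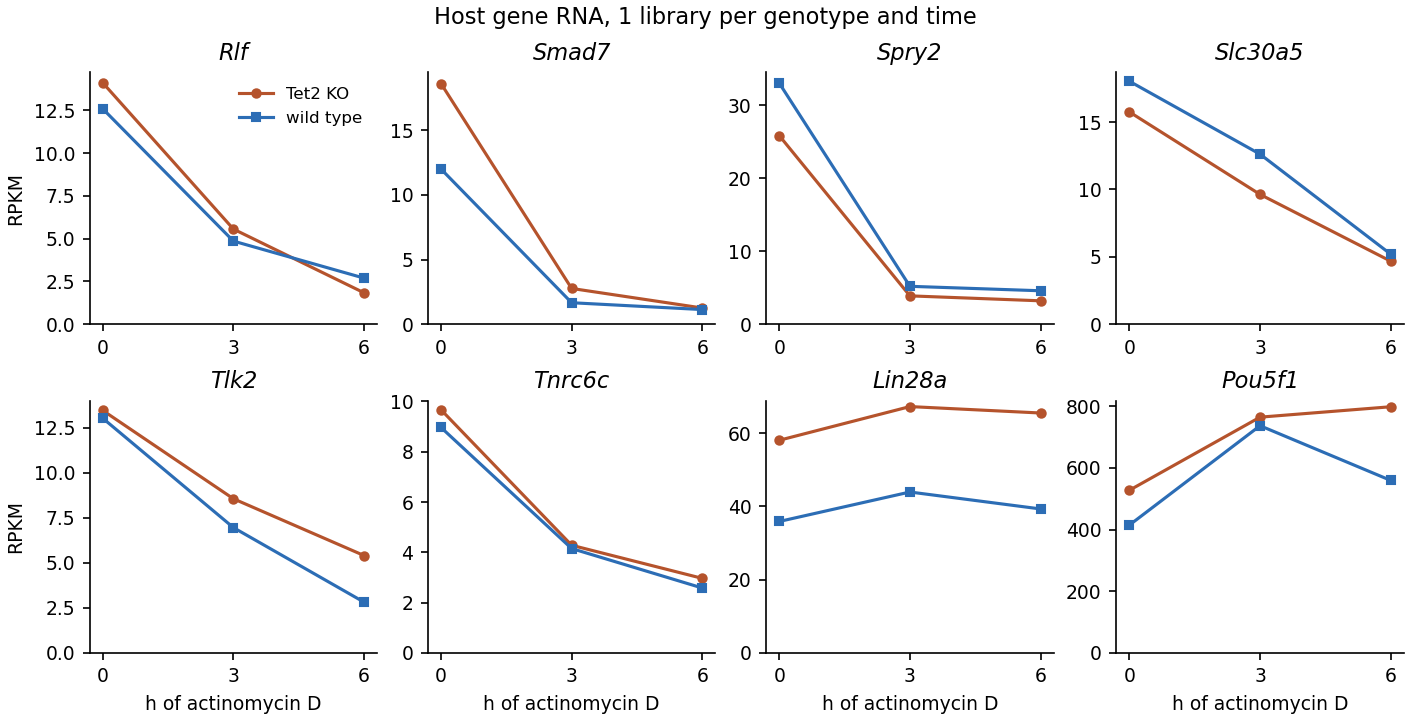
RNA level (RPKM) of 8 host genes at 0, 3 and 6 h of actinomycin D, with 1 library per genotype and time, orange circles for libraries labelled Tet2 KO and blue squares for wild type. The first 6 genes have slopes that passed the test, and Lin28a and Pou5f1 do not; Spry2 has 25.8 RPKM at 0 h and 3.21 RPKM at 6 h in the libraries labelled Tet2 KO.

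The slopes of host RNAs were not shown to differ between genotypes. In the limma interaction of genotype and time, 0 of 206 host loci passed, as did 0% of all loci, and 8 host loci (3.88%) and 488 of all loci (4.12%) had an unadjusted p under 0.05. The median slope difference, Tet2 KO minus wild type, was 0.03 per h over host loci and 0.02 per h over all loci. The smallest p was that of Pmepa1, whose 3 clustered members are given above, with 2.71, 2.77 and 4.12 RPKM in the libraries labelled Tet2 KO and 10.2, 4.87 and 2.59 RPKM in wild type (0.35 ± 0.1 SE per h, limma adjusted p = 0.9996). Notch4, a Notch receptor, had 0.724, 0.41 and 2.96 RPKM in Tet2 KO and 2.54, 1.62 and 0.926 RPKM in wild type. Celf5, an RNA-binding protein, had 0.932, 1.95 and 2.12 RPKM in Tet2 KO and 2.9, 1.27 and 0.961 RPKM in wild type. Lmna, the nuclear lamin A gene, had 11.6, 18.2 and 20.0 RPKM in Tet2 KO and 27.7, 22.1 and 17.1 RPKM in wild type, and the pseudogene Pisd-ps2 had 34.7, 34.4 and 26.9 RPKM in Tet2 KO and 16.9, 48.0 and 48.4 RPKM in wild type. Without the Tet2 KO 0 h library 4 host loci (1.94%) and 2.46% of all loci passed, and without the Tet2 KO 6 h library 3 (1.46%) and 2.2%. The host loci in these 2 sets had Zfp516 alone in common, whose estimate was -0.65 per h without the 0 h library and 0.67 per h without the 6 h library.

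The m5C machinery was measured as background to the members. Of 19 writers, TET enzymes and readers, 12 were tested in the same fits, and 0 passed for genotype, slope or slope difference, with 10 of the 12 genotype estimates above 0. Nsun2, a methyltransferase of messenger and transfer RNA, had 88.6, 90.0 and 89.8 RPKM in the libraries labelled Tet2 KO and 75.8, 84.8 and 67.1 RPKM in wild type. Alyref, the nuclear m5C reader, had 107, 148 and 118 RPKM in the libraries labelled Tet2 KO and 99.0, 143 and 104 RPKM in wild type, and Ybx1, a cytoplasmic reader, 171, 210 and 220 RPKM in Tet2 KO and 176, 241 and 197 RPKM in wild type. The ranges of the genotypes overlapped for Alyref and Ybx1 and were apart for Nsun2.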

How the data were processed

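RNA bisulfite sequencing and actinomycin D RNA sequencing of mouse embryonic stem cells were used, 10 of the 18 samples. m5C levels are fractions per position as deposited by the authors, with no coverage, so depth is unknown and no interval per level can be given. RNA levels are RPKM per locus as deposited by the authors, and library depth is not given. Per the labels' protocols, poly(A) RNA depleted of ribosomal RNA was fragmented, converted with the EZ RNA Methylation Kit and made into TruSeq libraries. Per the submitters' processing notes, Trimmomatic was used for the bisulfite samples, with builds GRCm38 and mm10, and Bowtie2, Cufflinks, MACS2 and DESeq2 are named for the others. Not given in the sources used here: versions, the rule for listing a position, and how duplicates and multiply mapped reads were treated.

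Positions were matched by chromosome, position and strand. Each position took its host gene from the RefSeq gene table (GRCm38.p6), taking a gene on the same strand first, then one of unknown strand, then protein-coding before others. Gene strand came from the RefSeq start windows and was unknown for 64 members in genes. The test for RNA was limma 3.58.1 (R 4.3.3), run on log2(RPKM + 1) with a mean trend, loci of mean RPKM at least 1, two-sided, Benjamini-Hochberg adjustment at 0.05. On this scale a fold change of a low locus is understated, RPKM slopes are relative to the library, and p-values reflect how these libraries vary, possibly for technical reasons alone. Residual degrees of freedom were 2 for genotype, 3 for slope and 2 for slope difference. Tested on simulated data with 200 changed loci among 11855, the fits recovered 100%, 100% and 97% for genotype, slope and slope difference. In the same order, 6, 4 and 5 loci were called falsely. Recovery at the spread and effect sizes of the real libraries was not tested, so real differences may have been missed. Loci of several symbols, 20 of the tested hosts, were kept.

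Named positions were the 10 highest per table, the 10 widest differences in each direction, the 5 highest listed in 1 table, the 5 on each side of the threshold, genes with 3 or more members and members in gene lists. Named host genes were the 12 largest changes past the threshold, or otherwise the 5 smallest p. Neighbouring pairs outside this rule (Sbf1, Dnmt3l, Rian) were chosen after their values were seen. The members and lists were chosen with earlier results of these data known. Some positions that this rule names are not reported here.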

Additional observations from a re-analysis of the deposited data

How the results depend on the processing

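The number of members was 585 at a threshold of 0.3, 148 at 0.5 and 196 if both replicates had to reach 0.4, and 313 to 377 when 1 replicate number was left out. The median level difference at shared members, 0.0295, stayed positive at thresholds of 0.3 and 0.5 and when 1 replicate of a genotype was left out (0.012, without Tet2 KO replicate 1, to 0.033), and was -0.0027 for members chosen on the wild type table alone. Read in the replicate that did not choose them, an alternative added after the data were seen, it was 0.024 and 0.006. Position by position, replicates with the same number did not deviate together between genotypes (correlation -0.0015 over 1039 shared positions). A correlation cannot show a shift common to all positions, so a batch shared by same-numbered replicates was not tested. Taking them as pairs (replicate block) gave 0.0295, the same value by construction. Members with a listed neighbour were 0 within 5 nt, against 0.776% of positions below 0.4, and 66 (24.9%) within 50 nt, against 12.04%.

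For genotype, 0 host loci passed under the main fit and every alternative except 2: 1 (Gm8420) passed with no time block and 1 (Gm8420) without the wild type 0 h library, a range of 0 to 1 over left-out libraries. For slope, 17 passed, 9 with no filter on low values (4.92% of all loci), 0 with quantile normalization (0.996% of all loci), and 0 to 32 over left-out libraries (0% to 12.5% of all loci). For slope difference, 0 passed, and 0 to 4 over left-out libraries (0% to 2.46% of all loci). Left-out fits assume that the lone library of that time varies like the others, and the cause of these changes was not tested. For the 17 host loci called for slope and the 5 of smallest p in each of the other contrasts, 292 alternative estimates were made, of which 188 kept direction and call, 101 lost the call, 3 gained it and 0 changed direction. Outside these loci, Zfp516, Irf2bp2, Parvb, Paxip1 and Phldb1 gained a call for slope difference without a Tet2 KO library, and the estimate of each changed sign between fits. Coverage is unknown, so the levels and their replicate gaps cannot be weighted by depth. Each RNA library has no replicate of its own.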
